A study of Setaria viridis with 9 samples.

Results

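PnsL2, PnsL3, PnsL4 and PnsL5 are nuclear-encoded proteins that sit on the lumenal face of NDH, the NADH dehydrogenase-like complex of chloroplasts. Their genes were chosen by identifier, as the rows described as photosynthetic NDH subunits of lumenal location 2 to 5, and made up 4 of the 17987 genes in the deposited table. The 4 genes, with their Entrez numbers, are PnsL2 (117849455, SEVIR_1G212100v2), PnsL3 (117845233, SEVIR_2G001050v2), PnsL4 (117849018, SEVIR_1G329000v2) and PnsL5 (117848252, SEVIR_3G117500v2), the last described in the table as a "-like" protein. All 4 passed the filter on low counts, as did 17970 genes in all.

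The leaves came from Setaria viridis cv. ME034V-1, a small C4 grass. The labels give 3 biological replicates for each of 3 genotypes: WT (wild type), ndhO (null NdhO alleles made by gene editing) and pgr5 (null PGR5 alleles made the same way). No treatment is named for any group. Plants were 3 to 4 weeks old and grew at an irradiance of 380 µmol per square metre per second, in 16 h of light at 28°C and 8 h of dark at 22°C. How many edited lines the replicates represent, and whether leaf discs were pooled, is not given in the sources.

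NDH takes electrons from reduced ferredoxin on the stromal side of the thylakoid, passes them to plastoquinone and moves protons into the lumen, and it works in a supercomplex with photosystem I. It is built from plastid-encoded subunits of the membrane and stromal arms and from nuclear-encoded ones, among them the Ndh subunits L to U, the PnsB proteins of subcomplex B and the PnsL proteins, which face the lumen. In C4 grasses that decarboxylate with NADP-malic enzyme, as Setaria does, NDH is known to be abundant in bundle sheath chloroplasts. PnsL2 and PnsL3 resemble PsbQ, an extrinsic protein of photosystem II. PnsL4 belongs to the FKBP immunophilins and PnsL5 to the cyclophilins, both families of peptidyl-prolyl isomerases. In Arabidopsis thaliana, loss of PnsL2, PnsL3 or PnsL4 impairs accumulation or activity of the complex.

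Library totals ran from 11606570 to 18837265 counts. Levels below are CPM, read counts scaled to library size, and are compared between libraries within a gene and not between genes, because no transcript lengths were used. Mesophyll enzymes of the C4 cycle summed to 64640 to 95312 CPM over 8 genes and bundle sheath enzymes to 13191 to 22739 CPM over 9, so markers of both photosynthetic cell types were present in every library. The edited genes did not follow the labels: NdhO was lowest in pgr5 2, at 20.5 CPM, WT 1, at 44.3 CPM, and pgr5 3, at 48.4 CPM. PGR5 was lowest in ndhO 1, at 38.1 CPM, WT 3, at 42.8 CPM, and WT 2, at 46.5 CPM. The groups are therefore sets of libraries labelled with a genotype, and each direction below is one between labels.

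The PsbQ-like subunits come first. In libraries labelled WT 1, 2 and 3 the level of PnsL2 was 80.4, 119 and 31.9 CPM. It was 44.9, 95.2 and 108 CPM in ndhO 1, 2 and 3, and 94.5, 41.6 and 97.6 CPM in pgr5 1, 2 and 3. Each label held 1 library under 45 CPM, while the other 6 lay at 80.4 CPM or above, so PnsL2 fell into a low and a high set of libraries with every label in both.

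PnsL3 was measured at 154, 230.2 and 52.3 CPM in WT 1, 2 and 3. It was at 136, 158 and 167 CPM in ndhO 1, 2 and 3, and at 159, 87.9 and 188 CPM in pgr5 1, 2 and 3. WT 3 and pgr5 2 were again low, whereas ndhO 1 lay close to the other libraries of its label, and the ndhO range fell inside that of WT.

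Of the isomerase-family subunits, PnsL4 had 514, 685 and 241 CPM in WT 1, 2 and 3. It was at 381, 424 and 467 CPM in ndhO 1, 2 and 3, and at 432, 342 and 537 CPM in pgr5 1, 2 and 3. The values of ndhO and pgr5 both lay between the lowest and the highest of WT.

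PnsL5 gave 391, 633 and 197 CPM in WT 1, 2 and 3. It was at 283, 483 and 554 CPM in ndhO 1, 2 and 3, and at 480.4, 249 and 797 CPM in pgr5 1, 2 and 3. Its highest value was in pgr5 3, where the other members had their highest value in WT 2, and the 3 labels overlapped.

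**Figure D1:**
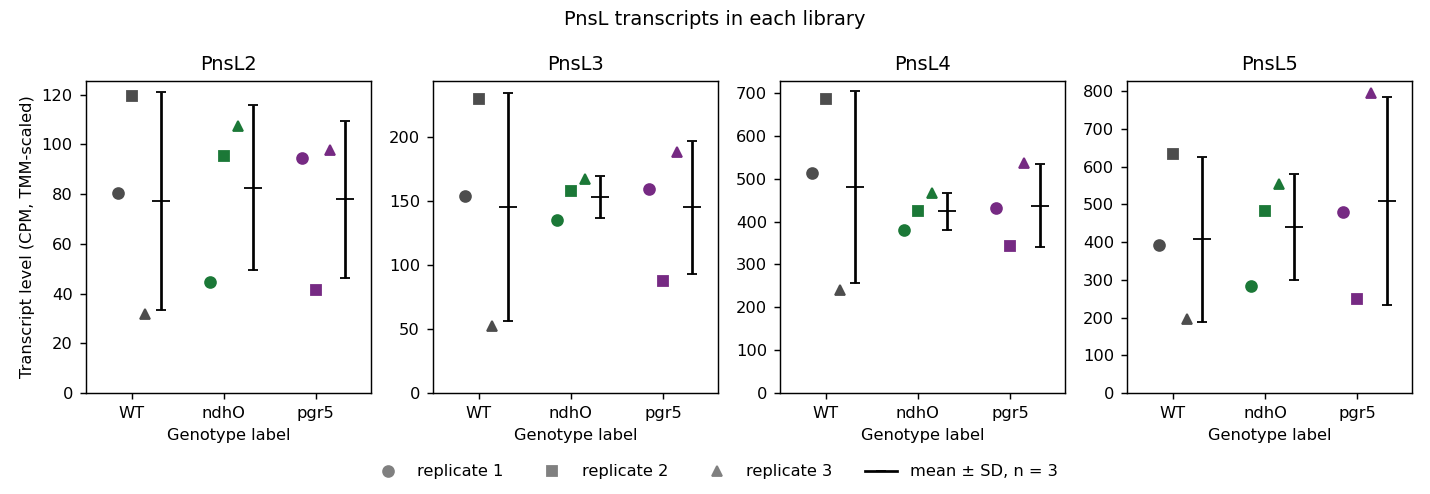
Transcript level (CPM scaled by TMM, linear axis from 0) of PnsL2, PnsL3, PnsL4 and PnsL5 in each of 9 libraries by genotype label. Symbols mark the replicate number and bars give mean ± SD (n = 3); WT spans the widest range for PnsL2, PnsL3 and PnsL4, from 31.9 to 119 CPM for PnsL2, and the labels overlap in every panel.

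Within each label the 4 genes ordered the libraries alike. WT 2 was highest and WT 3 lowest in all of them, ndhO 3 was highest and ndhO 1 lowest, and pgr5 3 was highest and pgr5 2 lowest. The highest and the lowest library differed 3.74-fold for PnsL2, 4.40-fold for PnsL3, 2.84-fold for PnsL4 and 4.04-fold for PnsL5. Counting error was small beside this spread, since the lowest count of any member, 390 for PnsL2 in WT 3, has an exact Poisson 95% interval of 352 to 431.

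The spread of each member was above that of the median gene. The SD of log2 CPM over the 9 libraries was 0.69 for PnsL2, 0.64 for PnsL3, 0.43 for PnsL4 and 0.66 for PnsL5, against a median of 0.25 over the 9557 genes with a mean of at least 10 CPM. An SD at least as large was found in 4.52% of those genes for PnsL2, 5.67% for PnsL3, 15.4% for PnsL4 and 5.10% for PnsL5. Little of it lay between labels: label means accounted for 1.48% of the sum of squares for PnsL2, 4.52% for PnsL3, 0.33% for PnsL4 and 4.50% for PnsL5, where the median over the same genes was 17.0%. These shares are descriptions of 9 libraries and carry no test.

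When ndhO libraries were set against WT ones, none of the 4 genes passed the test. PnsL2 averaged 82.5 ± 33.2 CPM in ndhO and 77.2 ± 43.8 CPM in WT (SD, n = 3), a log2 fold change of 0.10 with a standard error of 0.52. PnsL3 averaged 153 ± 16.2 against 145 ± 89.3 CPM (SD, n = 3), a log2 fold change of 0.08 with a standard error of 0.47. PnsL4 averaged 424 ± 42.9 against 480.1 ± 224 CPM (SD, n = 3), a log2 fold change of -0.18 with a standard error of 0.33. PnsL5 averaged 440 ± 141 against 407 ± 218 CPM (SD, n = 3), a log2 fold change of 0.11 with a standard error of 0.50. Every one of these differences was smaller than its standard error and smaller than the SD of either label, except that for PnsL4, which exceeded the SD of ndhO alone.

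By edgeR's quasi-likelihood test 0 of the 4 passed an adjusted p of 0.05 (adjusted p = 1.00 for each), as did 0% of the 17970 genes tested, and 0 of the 4 had an unadjusted p under 0.05, against 2.74% of all genes. DESeq2 called 0.089% of genes and none of the 4, and limma-voom called none. The libraries of the labels did not overlap for 0 of the 4 genes and for 8.63% of all genes. The 95% intervals were wide, from 0.466-fold to 2.45-fold for PnsL2 and from 0.533-fold to 1.46-fold for PnsL4. The data thus do not show equal levels. The direction was not stable: without WT 3 the log2 fold change was -0.27 for PnsL2, -0.32 for PnsL3 and -0.22 for PnsL5, and without WT 2 it was 0.18 for PnsL4.

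Libraries labelled pgr5 were compared with those labelled WT in the same fit, which shares its WT libraries with the comparison above. PnsL2 averaged 77.9 ± 31.5 CPM in pgr5 (SD, n = 3), with a log2 fold change of 0.01 and a standard error of 0.52. PnsL3 averaged 145 ± 51.7 CPM (SD, n = 3), and its log2 fold change of -0.0033 had a standard error of 0.47. PnsL4 averaged 437 ± 97.3 CPM (SD, n = 3), with a log2 fold change of -0.14 and a standard error of 0.33. PnsL5, the cyclophilin-family subunit, averaged 509 ± 275 CPM (SD, n = 3), with a log2 fold change of 0.32 and a standard error of 0.50. This was the largest of the 12 member differences, and it rested on single libraries: it was -0.16 without pgr5 3 and -0.01 without WT 3.

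None of the 4 passed edgeR's test (adjusted p = 1.00 for each), as did 0% of all genes, and 0 of the 4 had an unadjusted p under 0.05, against 2.06% of all genes. DESeq2 called 0.0334% of genes and none of the 4, and limma-voom called none. The labels did not overlap for 0 of the 4 genes and for 6.32% of all genes. The 95% interval for PnsL5 ran from 0.572-fold to 2.73-fold and that for PnsL4 from 0.550-fold to 1.51-fold.

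Between the edited labels, pgr5 and ndhO, the log2 fold change was -0.08 for PnsL2 with a standard error of 0.52 and -0.08 for PnsL3 with a standard error of 0.47. It was 0.04 for PnsL4 with a standard error of 0.33 and 0.21 for PnsL5 with a standard error of 0.50. None of the 4 passed edgeR's test (adjusted p = 1.00 for each), as did 0% of all genes, and none had an unadjusted p under 0.05, against 2.67% of all genes. DESeq2 called 0.0667% of genes and none of the 4, and limma-voom called none. The labels did not overlap for 0 of the 4 genes, against 8.25% of all genes, and without pgr5 3 the PnsL5 difference was -0.27.

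**Figure D2:**
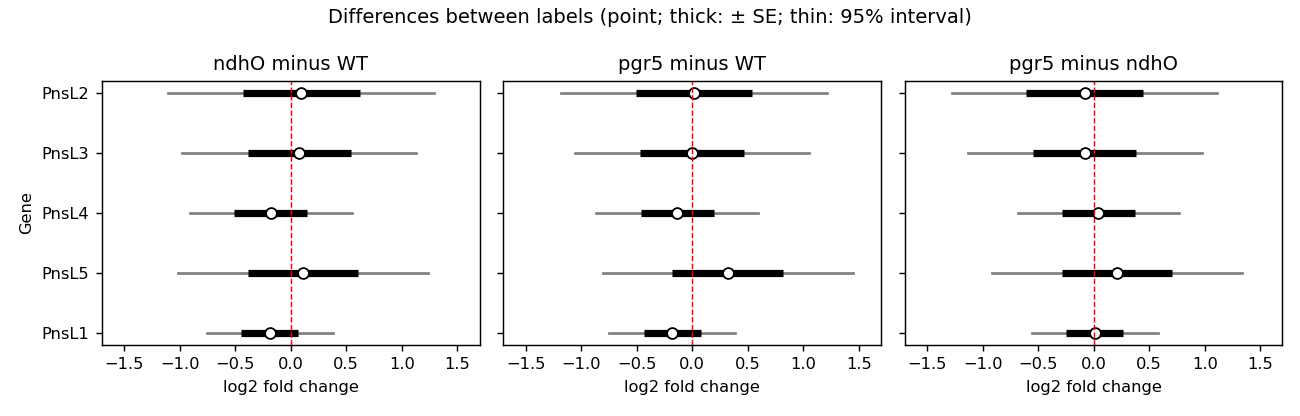
Log2 fold change between genotype labels for PnsL2 to PnsL5 and for PnsL1, the remaining lumenal subunit, from edgeR. Points are estimates, thick bars ± 1 standard error and thin bars 95% intervals; every interval spans 0, and those of PnsL4 and PnsL1 are the narrowest.

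The authors' deposited table gave no call for these genes either, with 0% of genes called for ndhO against WT and 2.51% for pgr5 against WT. In the authors' deposited table the log2 fold change for pgr5 against WT was -0.61 for PnsL2 (authors' adjusted p = 0.529), -0.03 for PnsL3 (0.982), -0.25 for PnsL4 (0.725) and -0.27 for PnsL5 (0.794). The edgeR fit of the counts gave 0.01, -0.0033, -0.14 and 0.32 for the same genes, so the sign differed for PnsL2 and PnsL5. For ndhO against WT the authors' deposited table gave -0.05 for PnsL2 (authors' adjusted p = 0.987), 0.26 for PnsL3 (0.925), -0.12 for PnsL4 (0.953) and 0.02 for PnsL5 (0.996). The edgeR fit gave 0.10, 0.08, -0.18 and 0.11 there, so the sign differed for PnsL2. The authors' deposited table holds corrected log2 CPM values. They are set here against log2 CPM on library totals without TMM scaling, so the ranges below also hold the scaling factors. For PnsL2 the corrected values lay above the unscaled log2 CPM by 0.29 to 0.44 in the WT libraries. They differed from it by -0.41 to -0.35 in the pgr5 libraries, by 0.30 and 0.44 in ndhO 1 and 2, and by -0.29 in ndhO 3. With TMM scaling, PnsL2 was at 6.33, 6.90 and 5.00 in WT 1, 2 and 3, against corrected values of 6.69, 7.26 and 5.36. For PnsL5 the difference from the unscaled values was 0.22 to 0.37 in WT and -0.34 to -0.28 in pgr5. For PnsL3 and PnsL4 it lay between -0.16 and 0.19 in all 9 libraries. For each of these PnsL genes it was positive in WT and in ndhO 1 and 2, and negative in ndhO 3 and pgr5. No header says what was corrected for, and the counts tested with edgeR were not corrected. For pgr5 against WT the corrected step cannot be told apart from the label.

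The 4 genes varied together across libraries. Because PnsL2 fell into separate low and high sets, correlations over all 9 libraries are given only for the other 3 genes. They are on log2 CPM, with two-sided exact permutation tests adjusted over 6 pairs of members. These 3 genes were also lowest in WT 3 and pgr5 2, so their values over 9 libraries rest in part on the same low libraries. PnsL5 was at 197, 249 and 283 CPM in WT 3, pgr5 2 and ndhO 1, against 391 CPM or more elsewhere. PnsL3 and PnsL4 had a Pearson r of 0.95 (adjusted p = 1.65e-04, exact permutation test, n = 9) and a Spearman rho of 0.90 (adjusted p = 0.00304). PnsL3 and PnsL5 had an r of 0.89 (adjusted p = 2.92e-04, exact permutation test, n = 9) and a rho of 0.97 (adjusted p = 4.96e-04). PnsL4 and PnsL5 had an r of 0.86 (adjusted p = 0.00191, exact permutation test, n = 9) and a rho of 0.87 (adjusted p = 0.00541). The unadjusted p-values of r were 5.24e-05, 1.46e-04 and 0.00191, and those of rho 0.00203, 1.65e-04 and 0.00451, in that order.

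These correlations were recomputed on fewer libraries. The 2 libraries farthest from the median of the first-named gene were left out. Without WT 3 and pgr5 2, r was 0.93 for PnsL3 and PnsL4 (exact permutation p = 0.00377, n = 7) and 0.81 for PnsL3 and PnsL5 (p = 0.0294, exact). Without WT 3 and WT 2, which keeps the low library pgr5 2, r was 0.82 for PnsL4 and PnsL5 (p = 0.0250, exact). With each label's mean taken off and values permuted within labels, r was 0.99, 0.90 and 0.90 for these pairs, each at p = 0.00463 by exact permutation, the smallest that the 216 arrangements can give. Among the 6 libraries above the gap in PnsL2, chosen after the values were seen, r for the 3 pairs with PnsL2 was 0.79 with PnsL3, 0.51 with PnsL4 and 0.63 with PnsL5 (exact permutation p = 0.0722, 0.297 and 0.160, n = 6). None of the 6 pairs passed there after adjustment (lowest adjusted p = 0.158, exact permutation). Of genes with a mean of at least 10 CPM, 0.251% tracked PnsL3 as closely as PnsL4 did, and 2.32% tracked PnsL4 as closely as PnsL5 did.

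Single members departed from the common pattern in some libraries. Departures were taken from the mean of the 4, which includes the member itself, on log2 CPM centred per gene. The largest was PnsL5 in pgr5 3 at 0.41, beside SDs of 0.43 for PnsL4 to 0.69 for PnsL2 over the 9 libraries. PnsL5 made up 49.2% of the 27720 counts of the 4 genes there, against 33.5% to 42.7% in the other 8 libraries. In ndhO 1, PnsL3 lay 0.34 above the common pattern and PnsL2 at -0.33, so the PsbQ-like pair parted most in that library. PnsL4 lay at 0.28 in WT 3 and 0.29 in pgr5 2, the libraries where the set was lowest.

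Libraries low in either edited gene lay at both ends of the common pattern. The mean of the 4, centred per gene, was lowest in WT 3 (-1.12), pgr5 2 (-0.63) and ndhO 1 (-0.36) and highest in WT 2 (0.69) and pgr5 3 (0.54). In the 3 libraries lowest in NdhO, namely pgr5 2, WT 1 and pgr5 3, it was -0.63, 0.12 and 0.54. In the 3 lowest in PGR5, namely ndhO 1, WT 3 and WT 2, it was -0.36, -1.12 and 0.69. In ndhO 2, ndhO 3 and pgr5 1, which belong to neither set, it was 0.20, 0.35 and 0.20. The libraries with the lowest PnsL mean, WT 3, pgr5 2 and ndhO 1, were thus each low in either NdhO or PGR5. A relation between the PnsL level and either edited gene was not tested. NdhO and PGR5 each fell into separate low and high libraries, so no correlation with them is given.

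**Figure D3:**
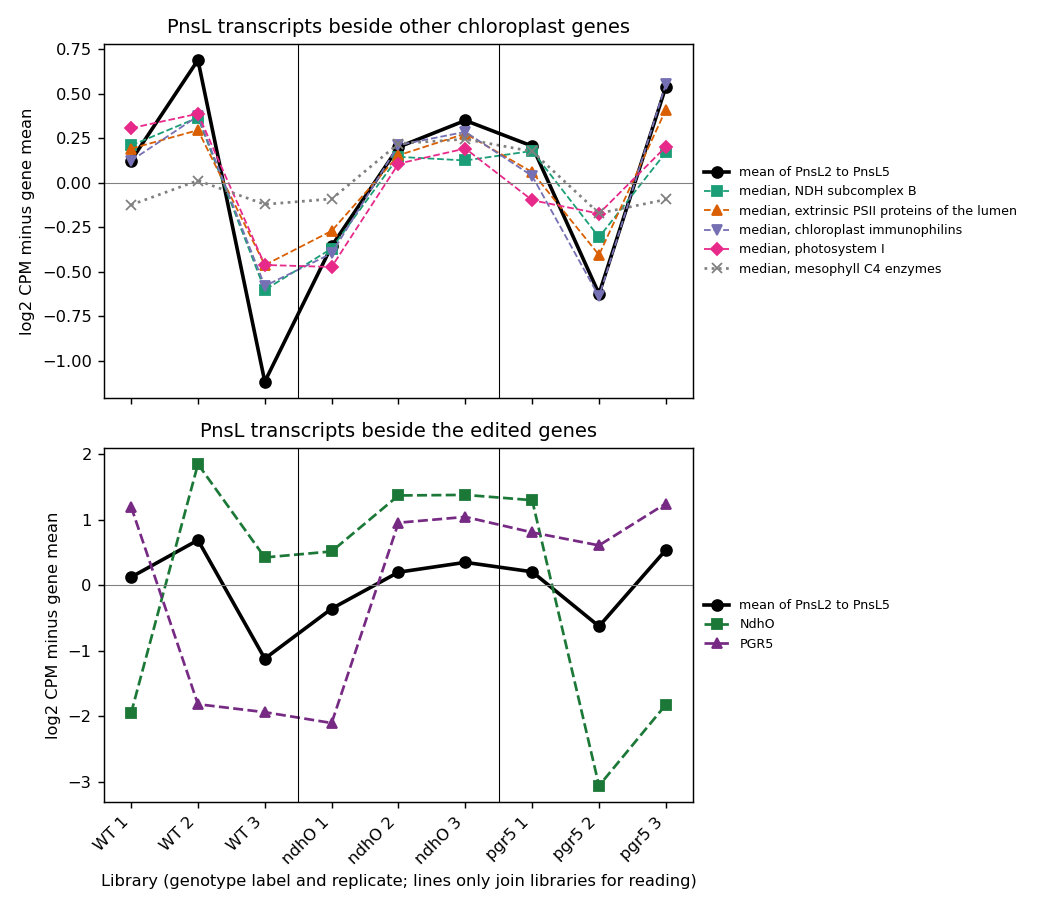
Level relative to each gene's mean (log2 CPM minus gene mean) in each of 9 libraries, for the mean of PnsL2 to PnsL5 with the medians of other gene lists (upper panel) and with NdhO and PGR5 (lower panel). Lists of chloroplast genes dip in WT 3, ndhO 1 and pgr5 2, where the PnsL mean is -1.12, -0.36 and -0.63. NdhO is lowest in pgr5 2, WT 1 and pgr5 3, and PGR5 in ndhO 1, WT 3 and WT 2. These sets overlap in part with the libraries low in PnsL.

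The other nuclear genes of the complex and its assembly were 18, and, leaving out NdhO, their r with the mean of the 4 ran from -0.49 to 0.97. PnsL1, the PsbP-like lumenal subunit, stood at 639, 677 and 369 CPM in WT 1, 2 and 3, at 393, 542 and 543 CPM in ndhO 1, 2 and 3, and at 502, 404 and 584 CPM in pgr5 1, 2 and 3. It was lowest in WT 3, ndhO 1 and pgr5 2, as PnsL2 was, but its highest and lowest libraries differed only 1.84-fold. Its r with the mean of the 4 was 0.90 over 9 libraries, given like the values that follow as a measure of likeness, without a test.

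In subcomplex B, on the stromal side, PnsB1 (LOC117860448) had an r of 0.97, PnsB2 (LOC117838176) 0.95, PnsB5 (LOC117856781) 0.92 and PnsB4 (LOC117841699) 0.90. PnsB2 spanned 91.8 to 366 CPM, a range as wide as that of the PnsL genes. The pair of genes described as PnsB3, LOC117846384 and LOC117847494, had 0.76 and 0.67. Reads could be split between such copies, so their single values are uncertain.

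Among the Ndh subunits, NdhL (LOC117842009), a membrane subunit, had an r of 0.92 and spanned 223 to 790 CPM. NdhS (LOC117835902), which forms the ferredoxin-binding site, had 0.83, NdhU (LOC117848688) 0.83 and NdhM (LOC117864460) 0.78. NdhT (LOC117833231), a J-domain-like subunit of the same stromal site, went the other way with -0.49 and varied only from 230.2 to 358 CPM.

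The assembly factors were divided as well. CRR6 (LOC117859654) had an r of 0.95, NDF5 (LOC117840143) 0.89 and CRR1 (LOC117840609) 0.77, the last at a mean of only 5.81 CPM. CRR7 (LOC117857645) had -0.08 and CRR3 (LOC117846084) -0.25, and their highest and lowest libraries differed 1.63-fold and 1.45-fold. Of the 9553 other genes with a mean of at least 10 CPM, 0.325% had an r as high as PnsB1 and 1.78% as high as NdhL, and the median gene had -0.06.

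**Figure D4:**
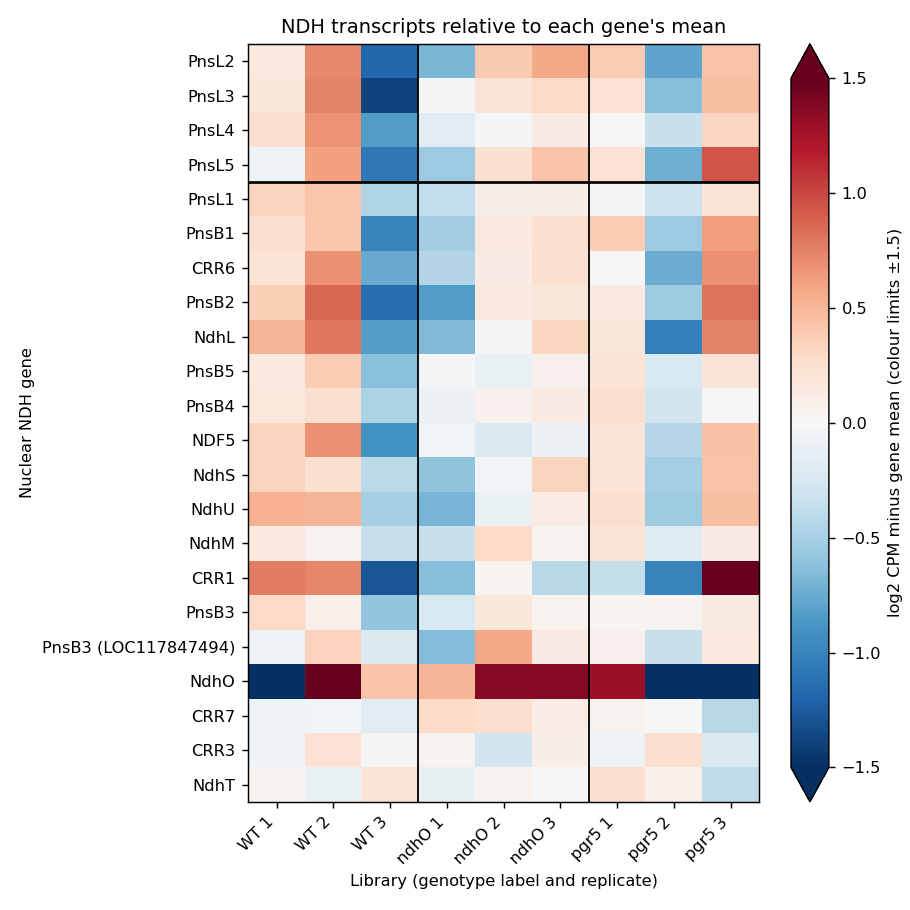
Log2 CPM minus the gene's own mean for 22 nuclear NDH genes (rows) in 9 libraries (columns), colour limits ±1.5. PnsL2 to PnsL5 stand above the black line, then PnsL1, then the others by falling r with the PnsL mean; WT 3 is low in most rows down to PnsB3, and NdhO, CRR7, CRR3 and NdhT at the bottom do not follow.

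By label, 0 of the 18 other NDH genes were called higher and 0 lower by edgeR in any of the 3 contrasts, as was 0% of the 17970 genes tested. Their median log2 fold change was -0.08 for ndhO against WT, -0.03 for pgr5 against WT and 0.07 for pgr5 against ndhO, where that of the 4 PnsL genes was 0.09, 0.01 and -0.02 and that of all genes tested 0.00, 0.00 and 0.01. CRR7 was the single gene of the 18 with an unadjusted p under 0.05 in any contrast, for pgr5 against ndhO, where 2.67% of all genes had one. It averaged 74.6 ± 12.5 CPM in pgr5 and 93.9 ± 5.94 CPM in ndhO (SD, n = 3), a log2 fold change of -0.33 with an edgeR adjusted p of 1.00. Its ndhO libraries lay above all pgr5 libraries and above all WT libraries, the latter at 75.9 ± 3.29 CPM (SD, n = 3). It was the 1 gene of the 18 whose labels did not overlap in these contrasts, against 8.25% and 8.63% of all genes.

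Lists wider than the PnsL families, of extrinsic photosystem II proteins and chloroplast immunophilins, varied between libraries in a like way for most members. Extrinsic proteins of photosystem II and their relatives, 11 genes with PsbO (LOC117858010) the most abundant, had a median r of 0.87 with the PnsL mean. In WT 3 all 11 lay below their own mean, with a median of -0.46, as did 10 of 11 in ndhO 1 and in pgr5 2. PsbO averaged 6195 ± 1530 CPM in WT, 5907 ± 1101 CPM in ndhO and 5506 ± 1209 CPM in pgr5 (SD, n = 3). The 14 chloroplast immunophilins, led by FKBP17-2 (LOC117839766) at 241 ± 54.0 CPM in WT (SD, n = 3), had a median r of 0.84 and medians of -0.58 in WT 3, -0.40 in ndhO 1 and -0.64 in pgr5 2. In these libraries 10, 11 and 13 of the 14 lay below their own mean, so 4, 3 and 1 did not.

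Photosystem I, to which NDH binds, had a median r of 0.84 over 9 subunit genes, and all 9 lay below their own mean in WT 3, ndhO 1 and pgr5 2, where their medians were -0.46, -0.47 and -0.17. They were also below it in pgr5 1, with a median of -0.10. Its most abundant gene encodes subunit XI (LOC117848636) and averaged 4809 ± 960 CPM in WT (SD, n = 3). By label edgeR called 0 genes of these lists in any contrast, as it called 0% of the 17970 genes tested. An unadjusted p under 0.05 was found for 1 of the 14 immunophilins for pgr5 against WT and for 2 for pgr5 against ndhO. The shares of all genes were 2.06% and 2.67%. In the photosystem lists 0 genes had one. For ndhO against WT the median log2 fold changes of the lists were 0.05 for the photosystem II proteins, 0.12 for the immunophilins and -0.13 for photosystem I. For pgr5 against WT they were 0.06, 0.07 and -0.13, and for pgr5 against ndhO 0.07, 0.10 and 0.01.

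Cell type markers moved with the PnsL genes in part. The 9 bundle sheath genes summed to 13283 CPM in WT 3 and 13191 CPM in ndhO 1, both low in PnsL transcripts. They summed to 17282 CPM or more in the other 7 libraries, pgr5 2 included at 18553 CPM, of which NADP-dependent malic enzyme gave 12442 CPM. Yet 7 of the 9 lay below their own mean in pgr5 2, against 8 in WT 3 and 6 in ndhO 1. The medians in these libraries were -0.13, -0.62 and -0.74. By label the sums ran from 13283 to 22289 CPM in WT, from 13191 to 17453 CPM in ndhO and from 18553 to 22739 CPM in pgr5. Their most abundant gene, NADP-dependent malic enzyme (LOC117857444), averaged 11393 ± 2048 CPM in WT, 9994 ± 836 CPM in ndhO and 12173 ± 425 CPM in pgr5 (SD, n = 3). The median r with the PnsL mean was 0.56 for the bundle sheath list and 0.18 for the 8 mesophyll genes. The part of cell composition in the PnsL levels was not tested, and in whole leaf, fewer cells of a type and less RNA per cell cannot be told apart.

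In the mesophyll list the sum was 70906 to 84897 CPM in WT, 67594 to 95312 CPM in ndhO and 64640 to 85809 CPM in pgr5. It was 84897 CPM in WT 3, where the PnsL genes were lowest, and pyruvate, phosphate dikinase 2 alone gave 49093 CPM of it. Of the 8 genes, 5 lay below their own mean in WT 3, with a median of -0.12. Pyruvate, phosphate dikinase 2 (LOC117850669) averaged 39672 ± 8217 CPM in WT (SD, n = 3). No gene of either marker list was called by edgeR in any contrast, as was 0% of the 17970 genes tested. For pgr5 against ndhO, 1 of the 9 bundle sheath genes had an unadjusted p under 0.05, against 2.67% of all genes. No mesophyll gene had one in any contrast. The median log2 fold change was -0.19 for ndhO against WT, 0.10 for pgr5 against WT and 0.35 for pgr5 against ndhO in the bundle sheath list, and 0.19, 0.04 and -0.17 in the mesophyll list.

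Beyond the complex, the 5 genes whose pattern was most like the mean of the 4 over 9 libraries had an r of 0.98 to 0.99. They were fasciclin-like arabinogalactan protein 13 (LOC117850594), a cell wall glycoprotein family member at a mean of 10.9 CPM, chloroplast ribosomal proteins L12 (LOC117855332) and S9 (LOC117839358), chloroplast peroxiredoxin-2E-2 (LOC117851388), which reduces peroxides, and protein Iojap (LOC117846576). For PnsL2 alone, where likeness reflects its low and high sets, the closest were a UPF0603 protein (LOC117848489), the uncharacterized gene LOC117836489 and thylakoid lumenal protein TL20.3 (LOC117864183), at an r of 0.97 to 0.98. For PnsL3 they were a protein-ribulosamine 3-kinase (LOC117836248), the uncharacterized gene LOC117850786 and a chloroplast glycerol-3-phosphate dehydrogenase (LOC117843258), at 0.97 to 0.98. For PnsL4 they were chlorophyll a-b binding protein 1B-21 (LOC117853799), an antenna protein, protoporphyrinogen oxidase (LOC117844486), an enzyme of tetrapyrrole synthesis, and LOC117867074, at 0.97 to 0.98. For PnsL5 they were chloroplast ribosomal protein S13 (LOC117838635), the photosystem II assembly factor HCF136 (LOC117852970) and 2-Cys peroxiredoxin BAS1 (LOC117856596), at 0.99. With 9 libraries and 9553 candidate genes, the highest r is chosen from many, so these values describe likeness and are no test of it.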

How the data were processed

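Polyadenylated leaf RNA was sequenced as paired-end 150-base reads from a stranded kit, as the labels' protocols describe. Limma 3.62.2 and edgeR 4.4.1 appear in the submitters' processing notes, as do StringTie 2.2.3, Trim Galore 0.6.7 and FastQC 0.11.9. The build and the aligner were not given in the sources used, and coordinates were left out. The authors deposited a table of 17987 genes with whole-number counts, used unchanged for all tests here. Per the file headers it also holds corrected log2 CPM and log2 fold changes, t and B statistics (a score not used here), and p-values. Columns of ndhO and pgr5 have 1 more number in their names and were matched by genotype and last number. RefSeq identifiers (GCF_005286985.2) matched 17558 genes and gave symbols only. No sequence was read.

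The deposited counts were tested with edgeR 4.0.16 in R 4.3.3 (TMM, default low-count filter, robust quasi-likelihood fit of 9 libraries on genotype label) and Benjamini-Hochberg adjustment over 17970 genes at 0.05. Intervals use the fit's t distribution. An exact test of 3 against 3 libraries cannot go below 0.1, so none was used. Log2 CPM had a prior count of 2. Correlations used all 362880 orderings of 9 libraries (scipy 1.17.1). P-values take account only of the variation between these samples. The procedure was tested on simulated data. Alternatives were DESeq2 1.42.0, limma-voom (limma 3.58.1), other scalings, no filter, 2-label fits, leaving out each library and a block for replicate number.

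Members and lists were chosen with earlier results of these data known. Named were the members, all nuclear NDH genes, both edited genes, the most abundant gene of each list and the genes most like the members in pattern (5 for their mean, 3 for each, among genes with a mean of at least 10 CPM). Lists were matched by words in the descriptions. The lists of NDH core, subcomplex B, lumenal and assembly genes, photosystem I, extrinsic photosystem II proteins, immunophilins, bundle sheath and mesophyll enzymes were used, and mitochondrial and housekeeping isoforms were left out of the last by description.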

Additional observations from a re-analysis of the deposited data

How the results depend on the processing

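edgeR called 0 genes in each contrast under every scaling, without the filter, with 2 labels, under the replicate block, with limma-voom and with each library left out (0 to 0), while 493, 371 and 480 genes had an unadjusted p under 0.05 for ndhO minus WT, pgr5 minus WT and pgr5 minus ndhO. DESeq2 called 16, 6 and 12. The replicate numbers did not pair the libraries: deviations of same-numbered libraries correlated at -0.38 to 0.06. Under the block 325, 246 and 280 genes had an unadjusted p under 0.05, and no member was called. Over 156 refits of the 12 member differences the lowest adjusted p was 0.981, and 28 turned sign. PnsL3 for pgr5 against WT turned to 0.0038 with upper-quartile scaling, 0.17 with limma-voom and 0.078 under the block. With 1 library left out, log2 fold changes ran as follows. For ndhO against WT they ran from -0.27 to 0.57 for PnsL2, -0.32 to 0.59 for PnsL3, -0.50 to 0.18 for PnsL4 and -0.22 to 0.59 for PnsL5. For pgr5 against WT they ran from -0.36 to 0.48, -0.40 to 0.50, -0.46 to 0.22 and -0.16 to 0.80. For pgr5 against ndhO they ran from -0.38 to 0.22, -0.31 to 0.18, -0.13 to 0.19 and -0.27 to 0.54. An arm left with 2 libraries was assumed to vary like the others.

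Correlations between members passed under the other scaling, with label means taken off and with each library left out. Those with PnsL2 were weaker without WT 3 and pgr5 2, the libraries farthest from its median. There r was 0.77 with PnsL3, 0.66 with PnsL4 and 0.84 with PnsL5 (unadjusted exact permutation p = 0.0706, 0.125 and 0.0127, n = 7). Over the 6 libraries above the gap in PnsL2, an alternative chosen after seeing the data, r was 0.79 for PnsL2 with PnsL3, 0.51 with PnsL4 and 0.63 with PnsL5, 0.89 for PnsL3 with PnsL4, 0.71 for PnsL3 with PnsL5 and 0.47 for PnsL4 with PnsL5, and none passed with the fewer libraries.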
